A study of Mus musculus with 8 samples.

Results

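The genes described here are 8 of the 19224 genes measured in single neurons of the mouse stellate ganglion, the sympathetic ganglion that sends fibres to the heart and forelimb. They are the receptor subunits Il6st, Lifr, Cntfr, Il6ra and Osmr, the kinase Jak1, the transcription factor Stat3 and the inhibitor Socs3, chosen by name as the gp130 cytokine receptors and their main signalling genes. Their levels were compared across the 8 neuronal subtypes named by the authors and, above all, between the cholinergic subtypes (Ach1 and Ach2) and the noradrenergic ones (NA1a, NA1b, NA1c, NA2 and NA3). The eighth subtype, Glut, is named for glutamate. Single cells of 8 C57BL6/J mice, 8 to 10 weeks old and all of 1 condition, were sequenced on the 10x Genomics platform, in which a random barcode (unique molecular identifier, UMI) lets every captured transcript be counted once. All mice had received an adeno-associated virus (AAV) encoding GFP in the heart and one encoding tdTomato in the front paws, listed in the methods under the CAG promoter, and these reporters were not used here. The samples are named as single mice, while the methods describe 16 left and right ganglia digested in 1 suspension, and whether animals were kept apart is not stated. P-values over mice measure only the spread between these libraries.

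Cytokines of this family signal through gp130, the protein encoded by Il6st, which pairs with a subunit that sets the ligand: Lifr for LIF, Lifr with Cntfr for CNTF, Il6ra for IL-6 and Osmr for oncostatin M. Ligand binding activates JAK kinases held on the receptor, which phosphorylate STAT3, and STAT3 then switches on genes such as Socs3, whose product blocks gp130 and JAK1. In cultured sympathetic neurons LIF and CNTF are known to lower noradrenergic genes and to raise cholinergic genes and Vip, a change known as the cholinergic switch.

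On GRCm38, the build of the deposited data, Il6st lies at chr13:112464070-112506860, Lifr at chr15:7090610-7197489, Osmr at chr15:6813568-6874968 and Cntfr at chr4:41657498-41697091. Il6ra lies at chr3:89869324-89913196, Jak1 at chr4:101151974-101265282, Stat3 at chr11:100886806-100939594 and Socs3 at chr11:117966079-117970336. The letters TTCNNNGAA, the core that STAT proteins bind, were searched in RefSeq windows (GRCm38.p6) from 250 bases before to 50 bases after each transcript start. The motif reads the same on both strands. It was found in the windows of 1 of the 8 genes, Socs3, and in 2726 of all 32851 windows (8.3%). The Socs3 match is shown because this gene is the feedback target of STAT3, with the 9 matching bases in capitals, from chr11:117969502-117969530 on the minus strand, 154 to 146 bases before the transcript start used.
Socs3 site: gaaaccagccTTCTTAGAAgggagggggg
The annotated Socs3 gene reaches past this stretch, and a match of letters is no measurement of binding.

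The deposited values are on the scale of UMIs per 10000 UMIs of a neuron, and the level of a gene in a mouse and subtype is the mean over its neurons. Of 1303 neurons, 1002 came from 5 mice whose names matched 1 sample each (mice 1 to 5, 165 to 235 neurons and 916296 to 1196621 UMIs per mouse), and values over mice rest on these. By their labels these 5 are of batch 2, and the 3 samples with no matched name are of batch 1. The other 301 neurons came from 3 mice whose names could each stand for more than 1 sample. These names were left unmatched, and the neurons enter only pooled values. A subtype entered in a mouse with at least 5 neurons: all 5 mice gave a value for the noradrenergic subtypes and for Ach2 (13, 5, 6, 17 and 5 neurons), mouse 4 alone for Ach1 (55 neurons), and mice 4 and 5 for Glut (7 neurons each). Median UMIs per neuron ran from 2162 in Ach1 to 8181.5 in NA1a. Since the authors set the subtypes by clustering the same neurons on their expression, a p-value between subtypes does not count the clustering. The p-values of the fits also draw on the spread of other genes. They do not rest on a gene's own steadiness over mice alone.

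Cell barcodes were shared between libraries in a way that touches 2 of the compared subtypes. In the 5 mice, 73 neurons carried 1 of 21 barcodes found in more than 1 library, and 20 of the 21 were given the same subtype each time. They made up 55 of 150 NA2 neurons (36.7%), 15 of 46 Ach2 neurons (32.6%), 3 of 17 Glut neurons and 0 neurons of the other subtypes. For those of the 8 genes that were tested, fitted differences in Ach2 and NA2 are therefore given with and without them. Levels and shares include these neurons unless stated.

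The labels were checked against marker genes. Ach2 neurons carried the cholinergic genes: Chat, which makes acetylcholine, had a mean level of 0.923 against 0 in the noradrenergic subtypes, its vesicular transporter Slc18a3 1.72 against 0.0346, and the peptide Vip 54.1 ± 16.0 (SD, n = 5 mice) against 0.646. The noradrenaline transporter Slc6a2 was at 1.47 in Ach2 and 13.7 in the noradrenergic subtypes. Ach1 was less clear. A Chat UMI was found in 0 of 62 Ach1 neurons (at most 4.84% by a limit of 3 counts), against 16 of 46 in Ach2, while all 62 carried Dbh, the enzyme that makes noradrenaline. In mouse 4 the Ach1 neurons had Th, the first enzyme of catecholamine synthesis, at 7.19. Other genes went with the label: Vip was at 5.07 in these neurons against 0.215 to 0.982 in the noradrenergic subtypes of that mouse, and Slc18a3 was found in 6 of 62 Ach1 neurons (9.68%). The summed noradrenergic identity genes were at 135.0 in Ach1 and 27.2 in Ach2. Ach2 is the main cholinergic group here, and Ach1 is kept apart under its name.

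All 8 genes were sparse. A UMI was found in 34.9% of the 1002 neurons for Lifr, 35.4% for Stat3, 31.2% for Cntfr, 29.7% for Jak1, 14.9% for Il6st and 7.88% for Socs3. Il6ra was found in 6 neurons and Osmr in 7. These shares move with depth, and counts cover counting error only, without the error of capture. Doublets were not removed, and no value for free RNA was available, since cells other than neurons were not used here.

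**Figure D1:**
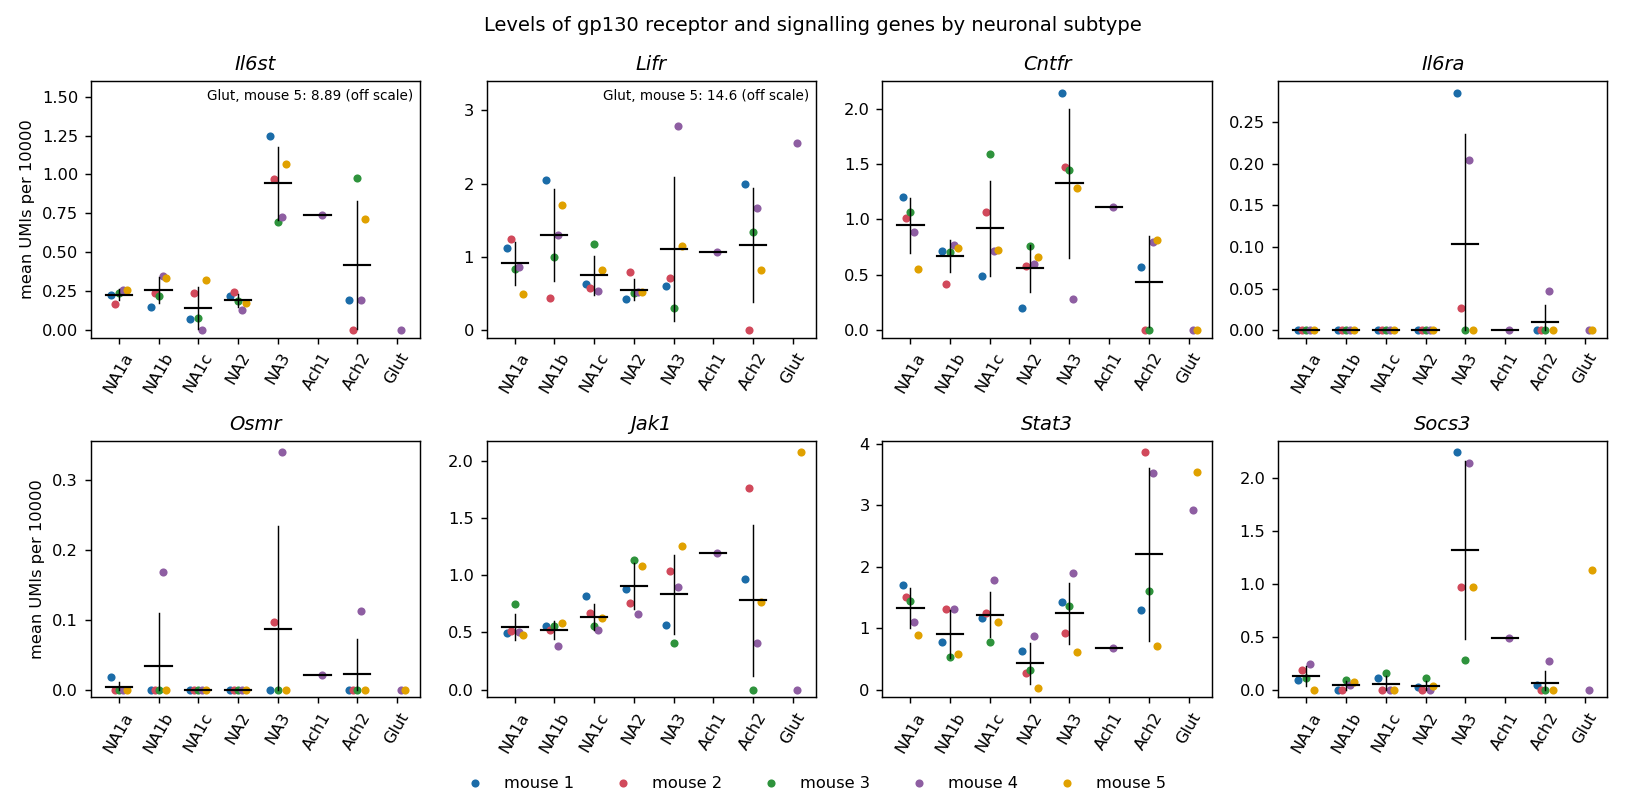
Level of each gene (vertical axis, mean UMIs per 10000, linear and scaled by gene) in the 8 subtypes; each point is 1 mouse, lines give the mean and bars the SD over mice, ended at 0 where they would pass it. The 5 NA3 points of Socs3 lie above every other noradrenergic point, and the Glut values of mouse 5 for Il6st (8.89) and Lifr (14.6) are off the scale.

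Il6st, the shared subunit, was highest among noradrenergic subtypes in NA3. Its NA3 levels in mice 1 to 5 were 1.25, 0.972, 0.695, 0.729 and 1.07 (0.942 ± 0.233, SD, n = 5 mice). All other noradrenergic values, over 4 subtypes, lay between 0 and 0.345, so that NA3 overlapped none of them in these 5 mice. In the unmatched mice NA3, with 7 neurons, was at 0.301 and NA1b, with 74, at 0.424. Means in those subtypes were 0.257 ± 0.0840 in NA1b, 0.228 ± 0.0375 in NA1a, 0.191 ± 0.0431 in NA2 and 0.142 ± 0.132 in NA1c. In Ach2 the mice stood far apart, at 0.194, 0, 0.977, 0.195 and 0.714 (0.416 ± 0.411). That range spans the low noradrenergic subtypes and overlaps NA3. The values of mice 3 and 5 came from 1 neuron with a UMI each, of 6 and 5 neurons. Without shared barcodes mice 1 and 4 were at 0.2515 (10 neurons) and 0.255 (13 neurons), below every NA3 value. Mice 2 and 3 were then at 0 (2 neurons each) and mouse 5 at 0.892 (4 neurons).

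Lifr, the LIF receptor subunit, overlapped widely between subtypes. Its levels in Ach2 were 1.99, 0, 1.34, 1.67 and 0.817 in mice 1 to 5 (1.16 ± 0.782), beside 1.30 ± 0.625 in NA1b, 1.11 ± 0.986 in NA3, 0.911 ± 0.290 in NA1a, 0.746 ± 0.263 in NA1c and 0.553 ± 0.144 in NA2. No pair of neighbours in this order differed by more than the larger of their SDs. NA2, the lowest, ranged from 0.419 to 0.799.

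Cntfr, the subunit that binds CNTF, had its highest mean in NA3, where mouse 4 stood below the rest. The NA3 levels were 2.15, 1.48, 1.45, 0.278 and 1.28 (1.33 ± 0.673). NA1a followed at 0.947 ± 0.247, NA1c at 0.919 ± 0.428, NA1b at 0.669 ± 0.143 and NA2 at 0.560 ± 0.212. In Ach2 the levels were 0.574, 0, 0, 0.797 and 0.817 (0.438 ± 0.411), so that 2 of 5 mice had no Cntfr UMI in their 5 and 6 Ach2 neurons. Glut neurons gave 0 of 17 with a Cntfr UMI, against a pooled level of 0.383 in the 20 Glut neurons of the unmatched mice, while 7 of 7 Glut neurons of mouse 5 carried Lifr.

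Il6ra and Osmr, the subunits for IL-6 and oncostatin M, were close to the limit of detection. An Il6ra UMI was found in 4 of 92 NA3 neurons, in 1 Ach1 neuron and in 1 Ach2 neuron. It was found in 0 of 182 NA1a, 0 of 237 NA1b, 0 of 216 NA1c and 0 of 150 NA2 neurons, counts that allow shares of at most 1.65%, 1.27%, 1.39% and 2%, and in 2 of 263 noradrenergic neurons of the unmatched mice. Osmr was found in 3 NA3 neurons and in 1 neuron each of NA1a, NA1b, Ach1 and Ach2. Both genes were below the limit on mean level and entered no test between subtypes.

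Jak1, the kinase bound to gp130, had the smallest fitted range among noradrenergic subtypes of the genes tested. Its noradrenergic means ran from 0.521 ± 0.0793 in NA1b to 0.903 ± 0.202 in NA2, with 0.833 ± 0.346 in NA3. NA2 was above the mean of the other 4 noradrenergic subtypes in 5 of 5 mice, at 0.877, 0.760, 1.13, 0.664 and 1.08. Ach2 ranged from 0 in mouse 3 to 1.77 in mouse 2 (0.780 ± 0.663).

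Stat3, which carries the signal to the nucleus, was lowest in NA2 and high in Ach2. NA2 levels were 0.634, 0.273, 0.327, 0.879 and 0.0327 in mice 1 to 5 (0.429 ± 0.330). The other noradrenergic means were 1.33 ± 0.330 in NA1a, 1.25 ± 0.495 in NA3, 1.22 ± 0.367 in NA1c and 0.905 ± 0.388 in NA1b, and NA1b, the next lowest, was above NA2 in 5 of 5 mice. The Ach2 levels were 1.30, 3.87, 1.61, 3.54 and 0.714 (2.20 ± 1.41), with mice 2 and 4 far above the other 3.

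Socs3, the feedback inhibitor, was highest in NA3, which held 88 of its 145 UMIs and 38 of the 79 neurons with one. Its NA3 levels were 2.24, 0.973, 0.278, 2.14 and 0.975 (1.32 ± 0.844), and the lowest of them was above every value of the other 4 noradrenergic subtypes. Those had means of 0.128 ± 0.0942 in NA1a, 0.0525 ± 0.0737 in NA1c, 0.0422 ± 0.0434 in NA1b and 0.0322 ± 0.0452 in NA2. Ach2 levels were 0.0438, 0, 0, 0.271 and 0, within the range of those 4 subtypes except for mouse 4.

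In Ach2 against the mean of the noradrenergic subtypes, 1 of the 6 genes tested passed an adjusted p of 0.05, in a comparison that called 6.42% of all 7278 genes tested. That gene was Stat3, with a difference of 0.61 (SE 0.17) in log2 of the level plus 1 and an adjusted p of 0.0163 (limma with the mouse as a block). Noradrenergic Stat3 means were 1.14, 1.06, 0.889, 1.40 and 0.640 in mice 1 to 5, so that Ach2 was higher in 5 of 5 mice, 2.15 times on average. The exact sign-flip permutation test gave p = 0.0625, the smallest two-sided value that 5 mice allow.

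The Stat3 call rested on a few neurons. Without shared barcodes the Ach2 levels were 1.68 (10 neurons), 9.66 (2 neurons), 2.65 (2 neurons), 3.88 (13 neurons) and 0.892 (4 neurons), each above its level with all neurons. With mice of at least 5 neurons the difference was then 0.80 with an adjusted p of 0.145, from 2 Ach2 profiles, and 107 genes (1.47%) were called in all. It was 0.53 with an adjusted p of 0.0839 without mouse 2, and 0.41 with an adjusted p of 0.272 without mouse 4. Over 20 alternatives in all, the difference stayed between 0.41 and 0.98 and the adjusted p ranged from 0.00177 to 0.325, with the call lost in 9.

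**Figure D2:**
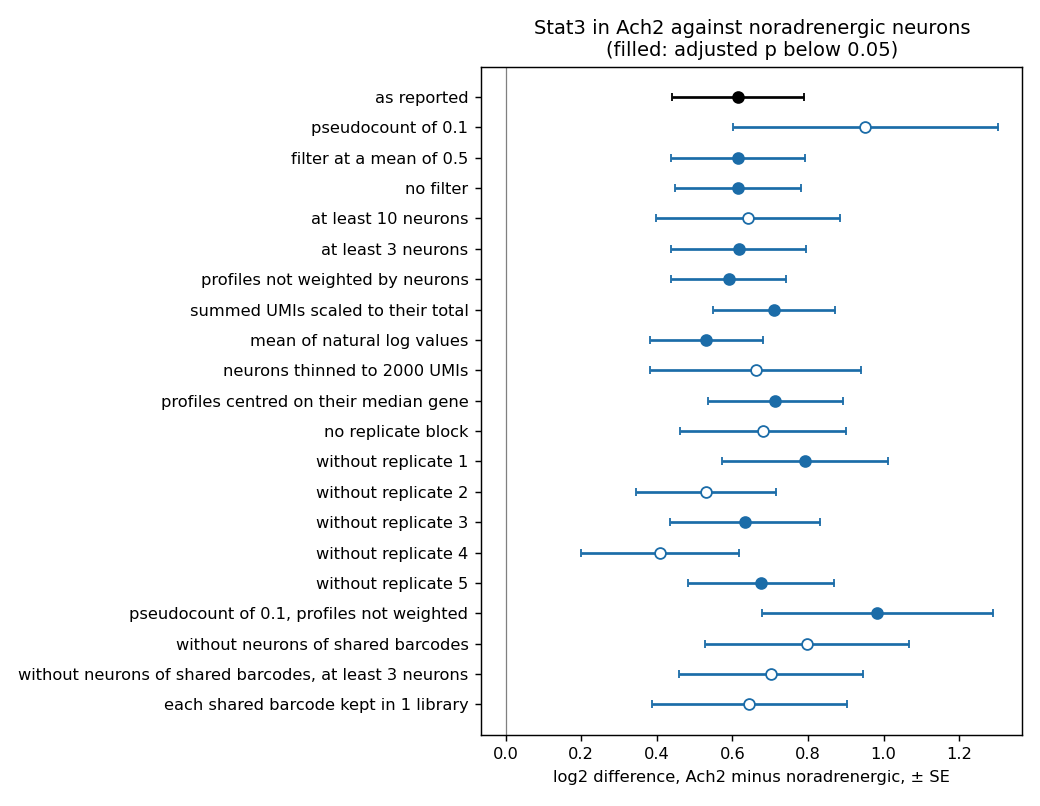
Fitted difference of Stat3 between Ach2 and the noradrenergic subtypes (horizontal axis, log2 of level plus 1, or plus 0.1 where stated, with bars of 1 SE) as reported and under 20 alternatives. Every point lies above 0, and open points, with an adjusted p of 0.05 or more, include all 3 settings that remove or merge shared barcodes.

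The other 5 genes tested did not pass between Ach2 and the noradrenergic subtypes. The 95% intervals of the log2 difference were -0.30 to 0.33 for Il6st, -0.08 to 0.68 for Lifr, -0.60 to 0.07 for Cntfr, -0.35 to 0.28 for Jak1 and -0.41 to 0.08 for Socs3. Over all 6 the median difference was -0.01, and over all genes tested it was -0.04. Lifr was at 0.68 and Cntfr at -0.03 without shared barcodes, with adjusted p of 0.418 and 0.985. Il6st was then at -0.02, Jak1 at -0.03 and Socs3 at -0.06, with adjusted p of 0.988, 0.9825 and 0.956. Socs3 was lower in Ach2 than the noradrenergic mean in 5 of 5 mice (noradrenergic means 0.494, 0.233, 0.149, 0.485 and 0.217; exact sign-flip p = 0.0625), a mean that holds the high NA3 values. A pseudocount of 0.1 without weights, the fit first planned, called Cntfr lower as well (-1.34, adjusted p = 0.0176), and it called 927 unchanged genes of 7263 in simulated data.

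**Figure D3:**
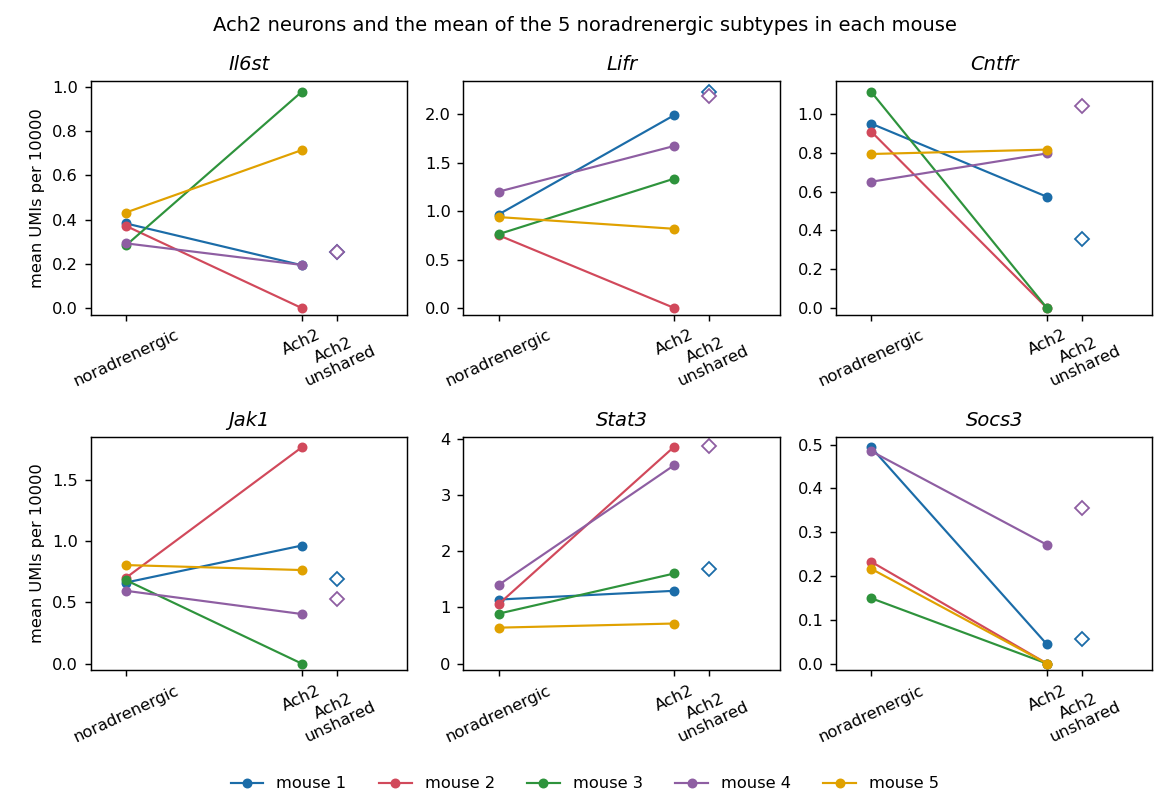
Level of 6 genes (vertical axis, mean UMIs per 10000) in noradrenergic neurons (mean of 5 subtypes) and Ach2 neurons, with 1 line per mouse; open diamonds give Ach2 without shared barcodes in the mice that kept at least 5 neurons (mice 1 and 4). Stat3 lines go up and Socs3 lines go down in 5 of 5 mice, while those of the other genes cross.

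Taking Ach1 and Ach2 neurons of a mouse together against all noradrenergic neurons gave no call among the 5 genes tested, in a comparison that called 2.78% of 7200 genes. Cholinergic and noradrenergic levels were 1.57 ± 0.831 and 1.04 ± 0.233 for Stat3 (n = 5 mice), with a log2 difference of 0.28 and an adjusted p of 0.589. They were 0.510 ± 0.252 and 0.290 ± 0.101 for Il6st, with a difference of 0.21 and an adjusted p of 0.652. Adjusted p was 0.883 for Lifr, 0.381 for Cntfr and 0.767 for Jak1, and Socs3 was below the limit on mean level. In Ach1 of mouse 4, Stat3 was at 0.670 beside 3.54 in Ach2 of the same mouse, and Il6st at 0.738 beside 0.195, with satellite glia markers summing to 142.2 in these Ach1 neurons. Cntfr was at 1.11 in Ach1 and 0.797 in Ach2 of mouse 4, and Jak1 at 1.19 and 0.405. Lifr was at 1.06 and 1.67 there, and Socs3 at 0.486 and 0.271. The pooled cholinergic value of mouse 4 came from 55 Ach1 and 17 Ach2 neurons. No test is possible with Ach1 in 1 mouse.

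Among the noradrenergic subtypes, all 6 genes tested differed by limma's F test over 5 subtypes, and 65.7% of all genes tested did so too. The range between the highest and lowest fitted subtype was 1.08 for Socs3 (adjusted p = 9.88e-16), 0.71 for Il6st (9.32e-05), 0.67 for Stat3 (0.000429), 0.53 for Cntfr (0.00627), 0.49 for Lifr (0.0382) and 0.38 for Jak1 (0.0446). The call for Lifr was lost without shared barcodes (0.36, adjusted p = 0.245) and in 14 of 20 alternatives, that for Jak1 in 8 of 20, that for Cntfr in 5 of 20 and that for Stat3 in 1 of 20. Those for Il6st and Socs3 were lost in none.

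Each noradrenergic subtype was then set against the mean of the other 4. In NA3, 2 of 6 genes were higher and none lower, where 18.8% of all genes were called. Socs3 was higher by 1.04 (SE 0.10, adjusted p = 1.86e-15) and 20.7 times by level, and Il6st by 0.65 (SE 0.13, adjusted p = 6.99e-05) and 4.61 times. Both were higher in 5 of 5 mice and stayed called in all alternatives that gave a value, 18 for Socs3 and 20 for Il6st. Cntfr in NA3 had a difference of 0.37 with an adjusted p of 0.0542, and of 0.0276 without shared barcodes. Stat3 itself did not pass in NA3 (0.06, adjusted p = 0.807).

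In NA2, 4 of 6 genes were lower, in the comparison of 1 noradrenergic subtype with the most calls over all genes (56.9%). Stat3 was lower by a difference of -0.54 (SE 0.12, adjusted p = 0.000108), which held in 20 of 20 alternatives. The differences were -0.38 for Lifr (adjusted p = 0.0152), -0.31 for Socs3 (0.00148) and -0.30 for Cntfr (0.0265). Without shared barcodes Stat3 was at -0.54 (adjusted p = 0.00122), Cntfr at -0.44 (0.00675) and Socs3 at -0.28 (0.0259). The call for Lifr was lost without them (-0.24, adjusted p = 0.224). Over all alternatives the call was lost in 10 of 20 for Lifr, 7 of 20 for Cntfr and 1 of 18 for Socs3. Jak1 without shared barcodes had a difference of 0.31 with an adjusted p of 0.0372, against 0.21 and 0.103 with all neurons. Il6st did not pass without them (-0.12, adjusted p = 0.487) or with all neurons (-0.18, adjusted p = 0.172).

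The NA1 subtypes gave few calls among these genes. Socs3 was lower in NA1b (-0.29, adjusted p = 0.00345) and in NA1c (-0.29, adjusted p = 0.00431), 1 of 6 genes in each, where 27.1% and 29.4% of all genes were called. Each of these calls was lost in 3 of 18 alternatives. The mean of the other 4 held NA3 in both cases. In NA1a none of the 6 was called, beside 12.4% of all genes, and Stat3 had the smallest p there (0.30, adjusted p = 0.0801).

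**Figure D4:**
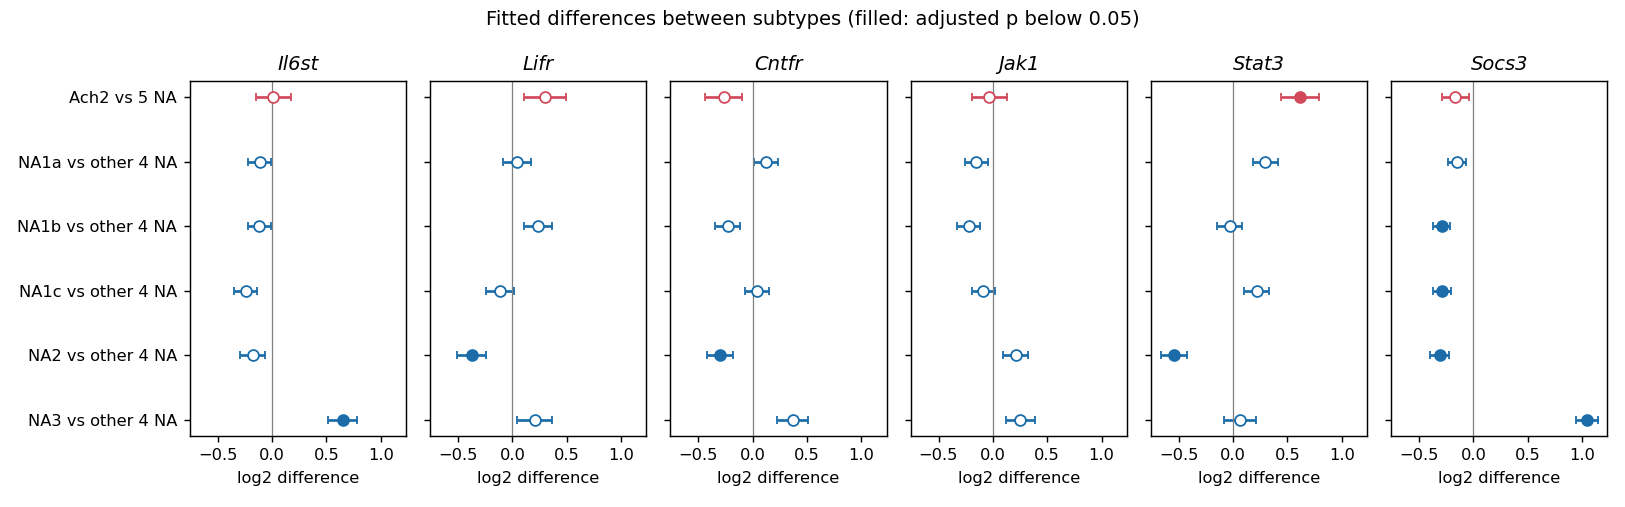
Fitted difference (horizontal axis, log2 of level plus 1, bars of 1 SE) of the 6 tested genes for Ach2 against the 5 noradrenergic subtypes and for each noradrenergic subtype against the other 4; filled points have an adjusted p below 0.05. Socs3 (1.04) and Il6st (0.65) in NA3 and Stat3 in Ach2 (0.61) are the filled points to the right of 0.

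Transcripts of other cells moved with NA3. The summed level of 10 satellite glia markers was 365 ± 122 in NA3, from 226 to 528 over mice, against means of 17.1 to 27.2 in the other noradrenergic subtypes, and 18.4 ± 7.16 in Ach2. Of the 9 that were tested, 8 were higher in NA3. Summed Schwann cell markers were at 14.6 in NA3 and 2.55 to 4.03 in the other 4, and fibroblast markers at 20.2 and 0.776 to 2.19. None of the satellite glia, Schwann cell or neuron markers was at 0 in NA3, and the sum of 4 neuron markers was 39.3 there against 82.4 to 99.1. Immediate early genes, which neurons and glia switch on within minutes of a stimulus or of dissociation, summed to 46.9 ± 9.78 in NA3 and to 4.41 to 7.84 in the other noradrenergic subtypes.

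Within NA3, the glial sums were 334, 449, 528, 226 and 289 in mice 1 to 5. Mouse 3, with the highest sum and 7 neurons, had the lowest Socs3 (0.278). Fibroblast sums were 26.22, 11.66, 19.95, 31.27 and 11.68, highest in mice 1 and 4, where Socs3 was highest too. The immediate early sum was lowest in mouse 3 (35.01). NA3 neurons were also parted at the median glial sum of their mouse, 44 below it and 44 above, with mean sums of 191 and 532. Socs3 was at 1.74 ± 1.59 below and 0.973 ± 0.709 above (SD, n = 5 mice), higher below in 3 of 5 mice. Il6st was at 0.908 ± 0.529 and 1.07 ± 0.546, and Cntfr at 0.794 and 2.09, higher above in 5 of 5 mice. Both parts had glial sums above those of the other noradrenergic subtypes. The part that RNA from other cells had in the NA3 levels was not tested.

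**Figure D5:**
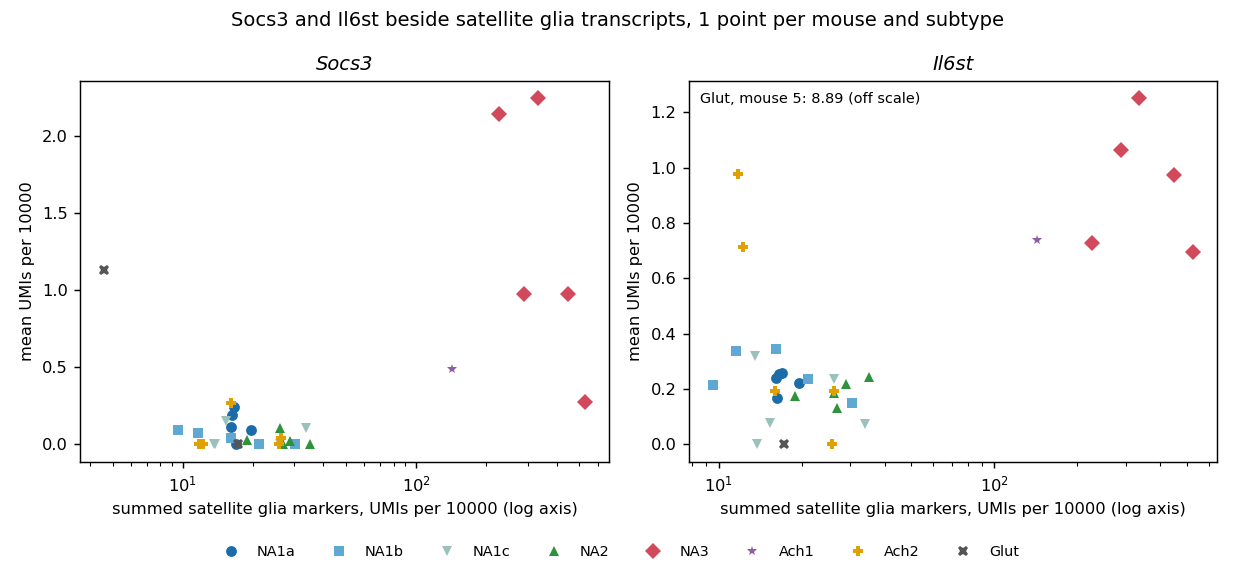
Level of Socs3 and Il6st (vertical axes, mean UMIs per 10000) against the summed level of satellite glia markers (horizontal log axis), with 1 point per mouse and subtype; Il6st in Glut of mouse 5 (8.89) is off the scale. NA3 points lie apart at sums of 226 to 528, and within NA3 the mouse with the highest sum, from 7 neurons, has the lowest Socs3 (0.278).

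The share of neurons with a UMI of Socs3 was highest in NA3. It was 41.3% ± 20.6 in NA3 (SD, n = 5 mice) against 6.16% in NA1a, 3.89% in Ach2, 3.11% in NA1c, 2.99% in NA1b and 2.33% in NA2. Glut was nearest, at 28.6% ± 40.4 (n = 2 mice), and Ach1 of mouse 4 was at 10.9%. Neurons thinned to 2000 UMIs, which left out 189 shallower ones of 1002, gave 19.2% ± 18.9 in NA3, 4.17% in Ach2 (n = 3 mice), 2.63% in NA1a, 1.18% in NA1c, 0.541% in NA1b and 0% in NA2. After thinning, Socs3 was at 13.8% in Ach1 of mouse 4 and at 0% in Glut (n = 2 mice). Il6st was found in 52.0% ± 22.3 of NA3 neurons, 19.1% ± 14.8 after thinning, and in 2.56% to 4.10% of the other noradrenergic subtypes after thinning. For Stat3, NA1a had 57.0% ± 15.7 and Ach2 46.5% ± 20.3 before thinning, at median depths of 8181.5 and 3228 UMIs, and NA1a had 20.7% ± 4.64 and Ach2 38.3% ± 12.6 after it. The Ach2 value after thinning came from 3 of the 5 mice, so that depth and the set of mice changed together.

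Few neurons showed several receptor subunits at once at this depth. Il6st and Lifr, the pair that binds LIF, were both found in 78 of 1002 neurons, 29.9% ± 13.5 of NA3 neurons and 6.97% of Ach2 neurons (SD over 5 mice), and in 5.03% and 0% after thinning. All 3 subunits for CNTF were found in 42 neurons, of which 21 were NA3. Jak1 and Stat3 were both found in 141 neurons. A subunit with no UMI in a neuron was not shown to be absent from it.

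The ligands were almost undetected in the neurons themselves. Over all 1303 neurons, Lif was found in 2, Cntf in 1, Il6 in 3, Osm in 4, Clcf1 in 4, Ctf1 in 9 and Il11 in 16, and Ctf2 and Il27 in 0. Among the other receptors and cytokines of the family, 1 of 15 could be tested, Il11ra1, the receptor for IL-11. It was found in 491 neurons. Its level was 0.701 ± 0.415 in Ach2 and ran from 0.699 in NA2 to 1.55 in NA1c. It did not pass in Ach2 (-0.34, adjusted p = 0.222), and it was higher in NA1c (0.37, adjusted p = 0.00623) and lower in NA2 (-0.38, adjusted p = 0.00405, and 0.0354 without shared barcodes and with at least 3 neurons).

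Of 9 other JAK and STAT genes 5 could be tested, and none passed in Ach2, where 6.42% of all genes were called. In NA2, 3 of them were lower: Stat2 (-0.58), Tyk2 (-0.36) and Jak2 (-0.37), with adjusted p of 7.99e-06, 0.000224 and 0.000923. All 3 stayed called without shared barcodes and with at least 3 neurons, and 56.9% of all genes were called in NA2. Tyk2 and Jak2 were chosen after their values were seen.

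Of 14 other negative regulators of JAK-STAT, 9 could be tested. In Ach2, where 6.42% of all genes were called, 1 was higher, the inhibitor Socs2. Its Ach2 levels were 1.89, 0, 1.80, 2.20 and 1.10 in mice 1 to 5, so that mouse 2 had none. The difference was 0.55 (SE 0.17, adjusted p = 0.0352), and 0.72 with an adjusted p of 0.0846 without shared barcodes and with at least 3 neurons. In NA2, 4 of the 9 were lower, among them the phosphatase Ptpn1 (-0.57, adjusted p = 9.805e-05), named after its values were seen, and Socs7 (-0.47, adjusted p = 0.000258), and 3 of the 9 without shared barcodes. None was called in NA3. Of 16 genes of the SHP2, RAS-ERK and PI3K branch, 15 could be tested. None of them passed in Ach2, beside 6.42% of all genes. In NA2 5 were higher and 4 lower, and in NA3 1 was higher and 2 lower. These are near the 56.9% and 18.8% called over all genes. Without shared barcodes 4 were higher and 2 lower in NA2.

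Genes that STAT3 or nerve injury is known to induce were mostly higher in NA3. Of 9 tested, 7 were higher and 1 lower there, where 18.8% of all genes were called, and the list had a median difference of 0.78 against -0.07 over all genes. The transcription factor Cebpd was at 3.32, 4.37, 1.61, 1.57 and 6.09 in NA3 and at 0.113 ± 0.0874 in NA1a, with a difference of 2.14 (adjusted p = 3.94e-29). Atf3, the injury factor, was higher by 2.02 (adjusted p = 2.90e-22) and Junb by 2.05 (adjusted p = 8.92e-23), both chosen after their values were seen. Several of these genes are immediate early genes or are also used by glia, and the marker sums above apply to them. The neuropeptide Gal was lower in NA3 (-0.85, adjusted p = 0.000151).

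In Ach2, where 6.42% of all genes were called, none of these 9 genes was higher and 2 were lower. Gal was at 1.13, 0.584, 0.613, 3.75 and 3.14 in Ach2 and at 23.0 ± 10.0 in NA1a, with a difference of -1.84 (adjusted p = 1.47e-10). The cell cycle gene Ccnd1 was found in Ach2 of mouse 4 alone (0.258) and had a difference of -0.65 (adjusted p = 0.00353), which was lost without shared barcodes (-0.56, adjusted p = 0.177). The difference of Gal remained called then (-1.24, adjusted p = 0.0122).

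Over the 32 profiles of a mouse and a subtype in the fit, which leaves out Ach1 with its 1 mouse, the gene most like each member by Pearson's r of log2 levels was Klhl5 for Il6st (0.886), Gnal for Lifr (0.810), Tspan18 for Cntfr (0.796), Copb1 for Jak1 (0.786), Zfp942 for Stat3 (0.706) and Junb for Socs3 (0.875). The next closest were Fstl1 and Ctsl for Il6st (0.875 and 0.860) and Lama4 and Egfl8 for Socs3 (0.852 and 0.844). Profiles of a mouse share a library and those of a subtype share a clustering, so these are descriptions without a test. The profiles included Glut of mouse 5 (7 neurons), at 8.89 for Il6st and 14.6 for Lifr. All others in the fit were at most 1.25 and 2.79, and r without that profile was not computed.

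The 3 mice left unmatched gave pooled values only. Their 16 Ach2 and 263 noradrenergic neurons had Stat3 at 3.01 and 2.38, found in 11 of 16 and 145 of 263 neurons, and Lifr at 2.85 and 1.16. By subtype, Stat3 was at 4.495 in NA3 (7 neurons) and 3.20 in NA1c (23 neurons), both above Ach2. It was at 2.83 in NA1a (134 neurons), 1.80 in NA1b (74 neurons) and 0.295 in NA2 (25 neurons). The pooled noradrenergic value weights each neuron alike, unlike the mean of subtypes in the matched mice. Socs3 was at 0.972 in Ach2, in 7 of 16 neurons, and at 0.105 in noradrenergic neurons, in 14 of 263, the other way round from the 5 matched mice. In NA3 of these mice (7 neurons) Socs3 was at 0.431, below Ach2. Il6st was at 0.742 and 0.255, Cntfr at 0.609 and 1.04 and Jak1 at 0.903 and 0.706. Median UMIs per neuron were 5319 and 4024 in these groups, and with neurons pooled over mice there is no replicate error.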

How the data were processed

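Single cells of mouse stellate ganglia had been processed by the authors with Cell Ranger 2.1.1 against mm10 and with Seurat, keeping cells with over 500 and under 6000 genes, under 20000 UMIs and under 15% mitochondrial RNA. As deposited, expression is given for 19224 genes in 1303 neurons on a natural log scale, ln(1 + UMIs per 10000), and a second deposited file gives each neuron's subtype and mouse name. UMIs were recovered from each neuron's smallest nonzero step, and 100% of nonzero values were whole within 0.01. The authors' subtypes were used as given.

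For each mouse and subtype with at least 5 neurons, log2 of mean UMIs per 10000 plus 1 was fitted with limma 3.58.1 (R 4.3.3), with a term per subtype, the mouse as a block, an intensity trend and weights by number of neurons. The fit of Ach1 and Ach2 together against all noradrenergic neurons had no weights. A fold change on this scale understates the change of low genes. Genes with a mean of at least 0.2 over profiles were tested (7278, or 7200), and Benjamini-Hochberg adjusted p below 0.05 was called. Intervals are 1.96 SE. Profiles share a mouse as the same animal in the labels, and their mean residual correlation was 0.0827, against -0.0557 between mice. Single values were compared by exact two-sided sign-flip tests.

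The fit first planned had a pseudocount of 0.1 and no weights. It was replaced because, in simulated data for Ach2, it called 927 unchanged genes of 7263 and the fit used called 9. The fit used recovered 71 of 90 genes changed 4-fold and 18 of 96 changed 2-fold, so that 2-fold changes would often be missed. For both cholinergic subtypes together it recovered 63 of 82 and 20 of 94. The simulated profiles had the real depths and, apart from the changed genes, a common mean per gene. They had no spread between neurons, no difference between noradrenergic subtypes and no shared barcodes. How far these counts carry over to the real profiles was not tested.

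The 8 members and 15 other gene lists were chosen with earlier results of these data known. The text names the members, in each other list the 3 genes with the smallest p in Ach2 where values are given, and the 3 genes most correlated with each member. Not every gene that this rule selects is reported here. In Ach2, where 6.42% of all genes were called, lists not described in the report gave these counts. Of 8 tested cholinergic identity genes 6 were higher and 1 lower, and 8 of 12 noradrenergic identity genes were lower. Lower were 1 of 4 neuron markers, 6 of 9 satellite glia and 0 of 4 Schwann cell markers. So were 2 of 3 fibroblast and 2 of 8 immediate early genes. Without shared barcodes and with at least 3 neurons, 2.28% of all genes were called. Then 3 of 6 cholinergic identity genes were higher and 1 lower. Lower too were 7 of 12 noradrenergic identity genes and 2 of 9 satellite glia markers. No neuron, Schwann cell, fibroblast or immediate early gene was called then. The 1 gene tested for each of endothelial, immune and smooth muscle cells did not pass. Alternatives covered the pseudocount, filter, weights, minimum number of neurons, scaling, centring, thinning to 2000 UMIs, the block, leaving out each mouse and, added after seeing the data, shared barcodes. Python 3.11.15, NumPy 2.4.6, pandas 2.3.3, SciPy 1.17.1 and matplotlib 3.10.9 were used.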

Additional observations from a re-analysis of the deposited data

Results flagged for a closer look

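In 10 of 48 groups of 5 mice, 1 mouse stood apart from the others by the share of the whole range that its gap takes up. How many groups this measure flags by chance in such sparse counts was not tested. For Socs3 in Ach2 the share was 0.838, with mouse 4 at 0.271 (3 UMIs in 2 of 17 neurons) and the others at most 0.0438. For Socs3 in NA2 it was 0.723, with mouse 3 at 0.109 from 1 UMI in 49 neurons. Jak1 in NA1a had 0.876 (mouse 3 at 0.751, others 0.480 to 0.514), Cntfr in NA1b had 0.817 (mouse 2 at 0.418, others 0.706 to 0.771) and Lifr in NA2 had 0.725 (mouse 2 at 0.799, others 0.419 to 0.524). Osmr in NA3 had 0.714, with mouse 4 at 0.339 from 1 UMI in 14 neurons. The share was 1 for Il6ra in Ach2 and for Osmr in NA1a, NA1b and Ach2, where 1 mouse had 1 UMI and the others none.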

How the results depend on the processing

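No value changed direction while called. The count of genes called in Ach2 (467) was 128 with at least 10 neurons, 1246 without weights, 84 after thinning, 188 with no replicate block, 1648 with a pseudocount of 0.1 and no weights, 107 without shared barcodes (167 with at least 3 neurons, 104 with each kept in 1 library), and 227 to 351 without 1 mouse. Among noradrenergic subtypes (4784) it was 3096 with a filter at 0.5, 3166 without weights and 2800 with a pseudocount of 0.1 and no weights. For Ach1 and Ach2 together (200) it was 1 with no filter, 11 with at least 10 neurons, 881 with weights, 31 after thinning, 91 with no replicate block, 23, 69 and 23 in the 3 barcode settings, and 91 to 192 without 1 mouse. The cause was not tested, though settings that drop neurons or mice leave fewer profiles. Without the block, Stat3 in Ach2 was at 0.68 (adjusted p = 0.0801).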

Other observations

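Glut neurons of mouse 5 stood apart in 2 receptor genes. Its 7 Glut neurons held 45 UMIs of Il6st, in 6 of 7 neurons with up to 17 UMIs in 1 neuron, and 72 UMIs of Lifr, in 7 of 7 neurons with up to 24. The 7 Glut neurons of mouse 4 had Il6st at 0 and Lifr at 2.56, and the 20 Glut neurons of the unmatched mice had 0.541 and 2.71. With 2 mice, no test was made.

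Stat3 was found in 55.8% of the 301 neurons of the unmatched mice and in 35.4% of the 1002 neurons of mice 1 to 5. NA1a, the deepest subtype in mice 1 to 5, made up 134 of the 301 and 182 of the 1002. The 2 sets thus differed in subtype make-up too. Within NA1a, the Stat3 level was 2.83 pooled over the unmatched mice and 0.884 to 1.70 in mice 1 to 5. For the other 7 members these shares were closer, such as 38.9% and 34.9% for Lifr and 31.9% and 31.2% for Cntfr. The 3 samples with no matched name are of batch 1 by their labels and mice 1 to 5 of batch 2, so that mice and batch cannot be told apart.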
